A study of Rattus norvegicus with 6 samples.

Results

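The genes described here were 10 inflammatory cytokine and cytokine receptor genes, given by name: the ligands Il1b, Il18 and Tnf, the antagonist Il1rn, the receptors Il1r1, Tnfrsf1a, Tnfrsf1b, Il6r and Osmr, and the feedback inhibitor Socs3. Members were the rows of the deposited gene table whose symbol equals one of these names. No row carried the symbol Tnf, so its expression was not analysed here and only its promoter is described. The other 9 of the 10 were measured and tested, among 19616 genes in the table and 14864 genes tested.

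The libraries came from whole liver tissue of male SD rats. The fibrosis group (FL) had received carbon tetrachloride (CCl4), a hepatotoxin that is converted to a reactive radical in hepatocytes, mixed with an equal part of olive oil and injected into the peritoneum at 2 mL per kg of body weight, 2 times a week for 5 weeks. The control group (CL) had received the same volume of olive oil alone, so all 6 rats carried the vehicle. Each group had 3 rats with 1 library per rat (CL5, CL6 and CL7 against FL2, FL5 and FL12), made from total RNA after removal of ribosomal RNA, and the age of the rats was not given in the sources used here. Expression was in FPKM, sequenced fragments scaled by the length of the transcript and by all mapped fragments of the library. Levels of different genes were compared as listed on this scale per length, on which some broadly expressed genes, such as Map3k7, were listed near 0. Sets of 3 values are in the order CL5, CL6, CL7 for the control livers (CL) and FL2, FL5, FL12 for the fibrotic livers (FL).

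Interleukin-1β and interleukin-18 are made as inactive precursors, mainly by macrophages, and become active after cutting by caspase-1, while the antagonist encoded by Il1rn occupies the interleukin-1 receptor without passing on a signal. Signals from interleukin-1 and from tumour necrosis factor (TNF) reach NF-κB, a family of transcription factors that is held in the cytoplasm by inhibitor proteins. Interleukin-6 and oncostatin M signal through receptors that share the gp130 chain, activate the transcription factor STAT3 in hepatocytes, switch on acute-phase plasma proteins, and induce SOCS3, which shuts the same receptors down.

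The labelled tissue was checked against 8 hepatocyte markers fixed by name. Their summed level was 50400, 47940 and 48440 FPKM in the control livers and 40920, 42660 and 41680 FPKM in the fibrotic livers, with albumin (Alb) the most abundant at 24149 to 33392 FPKM, and limma called 0 of the 8, with 2 higher and 0 lower at an unadjusted p under 0.05, and 1 of the 8, Tat (named after its values were seen), called higher without FL2. Albumin was listed lower in every fibrotic liver, at 24149 to 25209 FPKM beside 31431 to 33392 FPKM in the controls (log2 difference -0.38, SE 0.98), but this direction turned after quantile normalization (0.49). This SE was far wider than the spread of the rats within either group, because limma draws each variance towards a trend over genes of similar level. The test could therefore hardly call albumin, and its missing call does not show that the level was unchanged. In 3 of the 8 markers every FL rat lay below every CL rat, which held for 4.78% of all genes tested. In 2 every FL rat lay above every CL rat, which held for 35.7%. The median log2 difference of the 8 was 0.01, against -0.21 after median scaling and 0.43 after quantile normalization. As the tissue was sequenced in bulk, more or fewer cells of a type and more or less RNA per cell cannot be told apart.

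One library of the fibrosis group, FL2, stood apart from FL5 and FL12 in genes that hepatocytes express in response to STAT3. Of 14 such genes on a list (acute-phase proteins, hepcidin, Lcn2 and Timp1), 12 had their highest value of all 6 rats in FL2, against 15.2% of all genes tested. The α1-acid glycoprotein gene Orm1 stood at 3920 FPKM in FL2, 296 FPKM in FL5 and 895 FPKM in FL12, beside 166, 254 and 245 FPKM in CL5, CL6 and CL7. For the fibrinogen chain Fga the values were 5122 FPKM in FL2, 1965 FPKM in FL5 and 1839 FPKM in FL12, beside 2194 to 2396 FPKM in the CL rats, so FL5 and FL12 lay below all controls and FL2 far above them. Orm1, Fga and the further acute-phase genes plotted with them were picked after their values were seen. Members, ratios and counts of lists are therefore given also without FL2.

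A gene was called higher or lower when limma gave an adjusted p (Benjamini-Hochberg, over all genes tested) under 0.05 and a difference of at least 2-fold on the scale of log2(FPKM + 0.1), a scale that understates the change of genes with low values. On this rule 2 of the 9 measured members, Osmr and Il1r1, were called higher in FL and 0 were called lower, beside 9.29% of all genes tested called higher and 0.935% called lower. Without the fold limit 3 members passed, those 2 and Tnfrsf1b, beside 16.9% of all genes. In 5 members (Il1rn, Il18, Il1r1, Tnfrsf1b and Osmr) every FL rat lay above every CL rat, which held for 35.7% of all genes, and 0 members had every FL rat below every CL rat, which held for 4.78%. At an unadjusted p under 0.05 limma gave 4 members higher and 0 lower, beside 31.5% and 4.04% of all genes. The median log2 difference, FL minus CL, was 0.57 over the 9 members and 0.29 over all genes tested, of which 77.9% had a positive difference. That general shift depended on scaling: it was 0.08 after median scaling and -0.04 after quantile normalization of the rats, where the median of the members was 0.35 and 0.21, respectively. With FL2 left out, 1 member, Osmr, was called higher.

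**Figure D1:**
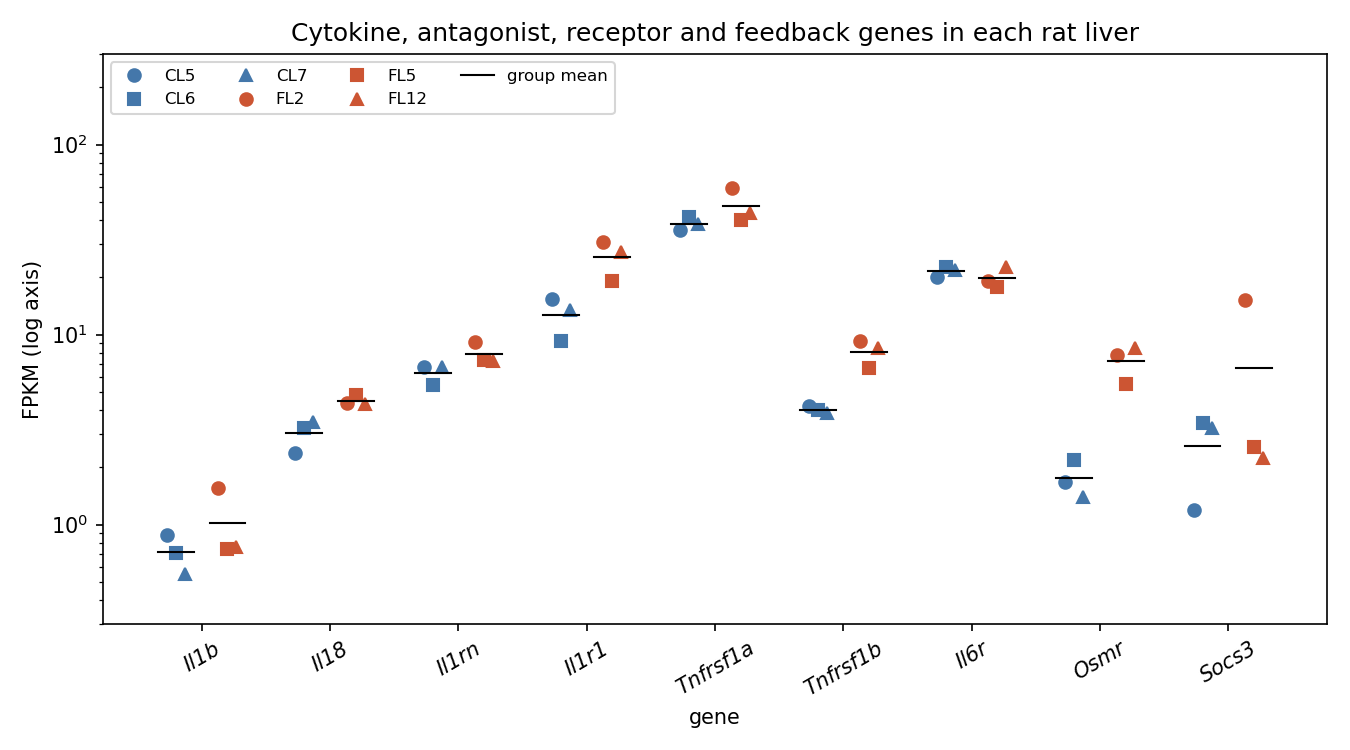
FPKM (log axis) of the 9 measured members in each rat, with CL rats in blue, FL rats in red and the mean of each group of 3 as a black line. The groups are apart for Il18, Il1rn, Il1r1, Tnfrsf1b and Osmr, and the FL mean of Socs3 lies between 1 rat at 15.1 FPKM and the others at 2.55 and 2.23 FPKM.

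Among the ligands, Il1b (ENSRNOG00000004649, chromosome 3) had the lowest listed level of the measured members in both groups. Its value was 0.88, 0.71 and 0.55 FPKM in the control livers and 1.55, 0.74 and 0.76 FPKM in the fibrotic livers. FL2 alone lay above the controls, and FL5 and FL12 lay within their range. The log2 difference was 0.40 with a standard error (SE) of 0.32 and did not pass the test (limma adjusted p = 0.402). It was 0.08 without FL2 and turned to -0.18 after quantile normalization, with adjusted p from 0.33 to 0.832 over the 13 alternatives.

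Il18 (ENSRNOG00000009848, chromosome 8), the other caspase-1 substrate, stood at 2.39, 3.24 and 3.47 FPKM in the CL rats and at 4.35, 4.80 and 4.32 FPKM in the FL rats. The groups did not overlap, and the FL rats lay closer together than the CL rats. Its log2 difference of 0.57 (SE 0.17) was just outside the threshold (limma adjusted p = 0.0524) and under 2-fold, and without FL2 it was 0.59. The adjusted p ran from 0.0418 to 0.435 over the 14 alternatives and was under the limit in 2 of them, with genes whose average reached 1 FPKM and with a robust prior, while the difference was 0.35 after median scaling and 0.21 after quantile normalization. Relative to the median of all genes the difference was 0.28.

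The antagonist Il1rn (ENSRNOG00000005871, chromosome 3) had 6.73, 5.42 and 6.72 FPKM in the control livers and 9.11, 7.31 and 7.24 FPKM in the fibrotic livers. Every FL rat was above every CL rat, by a margin smaller than the spread within either group. The log2 difference was 0.32 (SE 0.15, limma adjusted p = 0.162), only 0.03 above the median of all genes, and 0.21 without FL2, 0.10 after median scaling and 0.05 after quantile normalization.

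Antagonist and agonist were also compared within each rat, where a scaling factor common to all genes of a rat cancels except for the pseudocount. Quantile normalization, which shifts the genes of a rat by different amounts, does not cancel and was not run for the ratios. The log2 ratio of Il1rn to Il1b was 2.80, 2.77 and 3.39 in the CL rats and 2.48, 3.14 and 3.09 in the FL rats, so the listed level of the antagonist exceeded that of the agonist in all 6. The group means were 2.99 ± 0.35 and 2.91 ± 0.37 (SD, n = 3), a difference of -0.08, in overlapping groups (exact two-sided permutation p = 1). Its sign was not stable: it was 0.13 without FL2, 0.12 without CL7 and 0.07 with a pseudocount of 1, and negative in the other 5 of 8 alternatives. With 3 rats against 3 the smallest p such a test can give is 0.1, and 3 ratios of this kind were tested.

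Il1r1 (ENSRNOG00000014504, chromosome 9), the signalling receptor for interleukin-1, was read at 15.4, 9.24 and 13.5 FPKM in the control livers and at 30.7, 19.2 and 27.3 FPKM in the fibrotic livers. All FL rats were above all CL rats, with CL6 lowest among the controls and FL5 lowest in its group. Mean levels were 12.7 ± 3.15 FPKM and 25.8 ± 5.91 FPKM (SD, n = 3), and the gene rose by a log2 difference of 1.02 (SE 0.23, limma adjusted p = 0.0228), 0.73 above the median of all genes. The call sat at the fold limit and was kept in 6 of 14 alternatives, with adjusted p from 0.0197 to 0.0854. It was lost without CL6 (log2 difference 0.81), CL7 (1.08), FL2 (0.88) or FL12 (0.96), and also after median scaling (0.79) or quantile normalization (0.85), with a pseudocount of 1 (0.97) and without limma's trend (1.02, adjusted p = 0.052), while the difference was positive in all 14.

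Around this receptor, 24 further genes of the interleukin-1 family and its pathway were listed, of which 16 were tested. Their median log2 difference was 0.55, with 0.38 after median scaling and 0.21 after quantile normalization. Counts of this and the later lists stand beside 9.29% of all genes tested called higher and 0.935% called lower. At an unadjusted p under 0.05 these shares were 31.5% and 4.04%. Of the 16, 4 rose and 0 fell (9 were higher and 1, Il1rap, lower at an unadjusted p under 0.05). The 4 were Il1rl1 (1.48), which encodes the interleukin-33 receptor, Irak3 (1.16), an inhibitory kinase of the pathway, Il36b (1.14), a ligand of the family, and Casp1 (1.10), the protease that cuts pro-interleukin-1β and pro-interleukin-18. Casp1 stood at 2.27, 2.51 and 2.42 FPKM in the CL rats and at 5.62, 5.54 and 4.70 FPKM in the FL rats (limma adjusted p = 0.0041). The groups were well apart, and its call held with any 1 rat left out but was lost with a pseudocount of 1 (0.88), after median scaling (0.89) and after quantile normalization (0.75). Il1rl1 was lower, at 0.19 to 0.28 FPKM in CL and 0.51 to 1.32 FPKM in FL, and its call was lost without CL5, CL6, CL7, FL5 or FL12 (log2 difference 1.20 to 1.56 there). The call of Irak3 was kept in only 4 of 14 alternatives, being lost without any of CL5, CL6, CL7, FL2 or FL12 (0.81 to 1.29), without the filter and without the trend, besides the rescalings and the pseudocount of 1, and that of Il36b without CL5, CL7 or FL5 (0.95 to 1.21). Without FL2 the list had 3 genes higher, after median scaling 1, Il1rl1, and after quantile normalization or with a pseudocount of 1 there were 0.

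Other genes of this pathway were named whatever their values, and of these Casp1 alone was called. Il1rap, the accessory chain that Il1r1 needs for signalling, had 9.27, 8.55 and 9.02 FPKM in the control livers and 8.52, 6.06 and 6.58 FPKM in the fibrotic livers. Each FL rat lay below each CL rat, with FL2 at the edge of the control range, and the log2 difference was -0.35 (SE 0.15, limma adjusted p = 0.131, range 0.0273 to 0.325 over 14 alternatives). Without FL2 it was -0.50, with the adjusted p under the limit and the difference under 2-fold. Il1r2, a decoy receptor, was listed at 0 to 0.02 FPKM in CL and 0.04 to 0.21 FPKM in FL, under the mean of 0.1 FPKM needed for testing. The second agonist, Il1a, was more abundant than Il1b in every rat, with 2.66 to 4.03 FPKM in CL and 4.06 to 5.66 FPKM in FL (log2 difference 0.52, limma adjusted p = 0.111, with 0.43 without FL2, 0.30 after median scaling and 0.18 after quantile normalization). For the adaptor Myd88 the ranges were 6.26 to 8.14 FPKM and 7.75 to 11.5 FPKM and overlapped (log2 difference 0.31, limma adjusted p = 0.252, with 0.14 without FL2, 0.09 after median scaling and 0.05 after quantile normalization).

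The pair of TNF receptors differed in level and in pattern. Tnfrsf1a (ENSRNOG00000031312, chromosome 4), which carries a death domain and is found on most cells, was the most abundant member in both groups, with 35.4, 41.5 and 38.4 FPKM in the control livers and 58.9, 40.3 and 43.7 FPKM in the fibrotic livers. FL2 was the highest rat, and FL5 lay inside the control range. The log2 difference of 0.29 (SE 0.16, limma adjusted p = 0.226) equalled the median of all genes to 2 decimals and was 0.13 without FL2, 0.07 after median scaling and 0.20 after quantile normalization.

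Tnfrsf1b (ENSRNOG00000016575, chromosome 5), the TNF receptor without a death domain that is most abundant on leukocytes and endothelium, had 4.21, 4 and 3.87 FPKM in the CL rats and 9.24, 6.70 and 8.46 FPKM in the FL rats. The control rats lay close together, and even the lowest FL rat was clear of them. The means were 4.03 ± 0.17 FPKM and 8.13 ± 1.30 FPKM (SD, n = 3). Its log2 difference of 0.98 (SE 0.15, limma adjusted p = 0.00614) was under the 2-fold limit, so the gene was not called. Adjusted p ranged from 0.00429 to 0.0409 over the 14 alternatives, and the gene passed the fold limit without CL5 (1.02), without FL5 (1.12) and with a pseudocount of 0.01 (1.0). Leaving out FL2 gave 0.89.

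Within each rat, the log2 ratio of Tnfrsf1b to Tnfrsf1a was -3.04, -3.34 and -3.28 in CL and -2.66, -2.57 and -2.36 in FL. All FL rats had a higher ratio than all CL rats, although Tnfrsf1a remained the higher of the 2 in listed FPKM throughout. The difference was 0.69 between means of -3.22 ± 0.16 and -2.53 ± 0.16 (SD, n = 3), with an exact two-sided permutation p of 0.1, the smallest possible, and 0.15 after adjustment over the 3 ratios. It was 0.76 without FL2.

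Of 21 other genes of TNF signalling and shedding, 18 gene rows were tested. Their median log2 difference was 0.38, with 0.17 after median scaling and 0.09 after quantile normalization. Over all genes tested, 9.29% rose and 31.5% were higher at an unadjusted p under 0.05. Of these 18 rows, 3 rose and 0 fell (8 were higher and 0 lower at an unadjusted p under 0.05). Rhbdf2 (1.61) encodes iRhom2, which brings the TNF-shedding protease ADAM17 to the cell surface, Tnfsf12 (1.27) encodes the TNF relative TWEAK, and Birc3 (1.16) encodes cIAP2, a ubiquitin ligase of the TNF receptor complex. Rhbdf2 had 0.53, 0.78 and 0.96 FPKM in the CL rats and 2.76, 2.21 and 2.41 FPKM in the FL rats (limma adjusted p = 0.0058). The groups were apart in all 3 genes, and all 3 calls held with any 1 rat left out. With a pseudocount of 1 all 3 were under the fold limit (0.98, 0.98 and 0.79), after median scaling Birc3 was (0.94), and after quantile normalization Tnfsf12 (0.90) and Birc3 (0.70) were. Ltb, the gene for lymphotoxin β, was listed at 0 to 0.16 FPKM in CL and 0 to 0.28 FPKM in FL over its 2 rows.

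In the list of 17 NF-κB subunits, kinases and inhibitors, all were tested. Their median log2 difference was 0.64, with 0.41 after median scaling and 0.31 after quantile normalization. Among all genes tested, 9.29% rose and 31.5% were higher at an unadjusted p under 0.05. Of the 17, 3 rose and 0 fell (with 9 higher and 0 lower at an unadjusted p under 0.05). These were Relb (1.13) and Nfkb2 (1.02), the subunits of the non-canonical pathway, and Tnfaip3 (1.07), which encodes the inhibitory enzyme A20. Tnfaip3 had 1.17, 1.53 and 1.91 FPKM in the control livers and 4.09, 3.25 and 2.65 FPKM in the fibrotic livers (limma adjusted p = 0.0192). No FL rat reached down to the controls. Its call was lost without CL5, CL6, FL2 or FL5 (0.90 to 1.08), that of Relb without CL6, CL7, FL5 or FL12 (1.0 to 1.08), and that of Nfkb2 without CL5, CL7 or FL5 (0.98 to 0.99). Nfkbia, the inhibitor IκBα, had 11.8, 16.0 and 14.3 FPKM in CL and 24.7, 24.7 and 20.03 FPKM in FL. It was apart between the groups, but its log2 difference of 0.72 was under the fold limit (SE 0.15, limma adjusted p = 0.0163, range 0.015 to 0.0818 over 14 alternatives), and it was 0.67 without FL2. Under either rescaling of the rats or with a pseudocount of 1, 0 of the 17 were called, and without FL2 there were 2.

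The receptor chains that pair with gp130 held both the lowest and the highest log2 difference of the 9 members. Il6r (ENSRNOG00000020811, chromosome 2), the chain specific for interleukin-6, had 20.02, 22.6 and 21.9 FPKM in the control livers and 19.1, 17.8 and 22.6 FPKM in the fibrotic livers. FL12 equalled the highest control to 3 digits, FL2 and FL5 lay below all controls, and the groups overlapped. Il6r was the single member with a negative log2 difference, -0.12 (SE 0.13, limma adjusted p = 0.517), and this stayed negative in all 14 alternatives, from -0.35 to -0.05, and was -0.10 without FL2.

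Osmr (ENSRNOG00000033192, chromosome 2), a chain of the oncostatin M receptor, had 1.68, 2.20 and 1.40 FPKM in the CL rats and 7.82, 5.47 and 8.45 FPKM in the FL rats. Even FL5, the lowest of its group, exceeded the highest control, and here FL12 and not FL2 was the highest rat. Means were 1.76 ± 0.41 FPKM and 7.25 ± 1.57 FPKM (SD, n = 3), a ratio of 4.12. Osmr rose by a log2 difference of 1.98 (SE 0.22, limma adjusted p = 0.00307), the largest of the 9 members, larger than in 97.6% of all genes tested, and 1.69 above their median. The call was kept in all 14 alternatives, with log2 differences from 1.57 to 2.17 and adjusted p from 0.00194 to 0.0165, and the difference was 1.91 without FL2.

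The log2 ratio of Osmr to Il6r was -3.50, -3.30 and -3.87 in the CL rats and -1.28, -1.68 and -1.41 in the FL rats. There was no overlap, and Il6r remained the higher of the 2 in listed FPKM in every rat. The difference of 2.10 lay between means of -3.56 ± 0.29 and -1.46 ± 0.21 (SD, n = 3), with an exact two-sided permutation p of 0.1 and 0.15 after adjustment over the 3 ratios. It was 2.01 without FL2.

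Il6st, Lifr and Osm did not pass the test, and Il6 was not tested. Il6st, which encodes gp130 itself, had 103, 111 and 100.5 FPKM in the control livers and 111, 77.9 and 69.7 FPKM in the fibrotic livers, so FL2 was at the control level and FL5 and FL12 were below it (log2 difference -0.31, limma adjusted p = 0.251, range 0.0259 to 0.545 over 14 alternatives). Without FL2 the groups did not overlap, and the difference of -0.51 had an adjusted p under the limit but was under 2-fold. Lifr, another gp130 partner, had 15.7 to 17.3 FPKM in CL and 16.5 to 20.9 FPKM in FL (log2 difference 0.16, limma adjusted p = 0.381), with a difference of 0.25 without FL2, -0.06 after median scaling and -0.01 after quantile normalization. The ligand Il6 was listed at 0, 0.07 and 0 FPKM in CL and at 0.13, 0 and 0.10 FPKM in FL, too low to be tested. The ligand Osm was listed at 0.04, 0.06 and 0.04 FPKM in CL and at 0.11, 0.24 and 0.19 FPKM in FL. All FL rats were above all CL rats for Osm, at levels close to the pseudocount (log2 difference 0.91, SE 0.41, limma adjusted p = 0.156, range 0.0372 to 0.55 over 11 alternatives, and 1.10 without FL2). The difference depended on the pseudocount, at 0.17 with 1 and 1.70 with 0.01, was 0.38 after quantile normalization, and was called in 0 of the 11. A low listed value does not show that a transcript was lacking: Map3k7, a broadly expressed kinase gene of the TNF list that was named after its values were seen, was listed at 0.02 to 0.09 FPKM.

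Among 26 genes of the gp130 family and its signalling, 18 were tested. Their median log2 difference of 0.20 was under that of all genes. It was -0.02 after median scaling (all genes 0.08) and -0.03 after quantile normalization (all genes -0.04). For all genes tested the shares were 9.29% called higher and 31.5% higher at an unadjusted p under 0.05. Of the 18, 1 rose and 0 fell (5 were higher and 2 lower at an unadjusted p under 0.05). The gene was Clcf1 (1.23), a gp130 ligand, at 0.31 to 0.44 FPKM in CL and 0.66 to 1.55 FPKM in FL, and its call was lost without CL5, CL6, CL7, FL5 or FL12 (0.96 to 1.30) and without the filter. Under median scaling and under quantile normalization 0 were higher and 1 was lower, Cntfr, the receptor for ciliary neurotrophic factor (log2 difference -1.15 and -1.53), which stood at 0.75, 0.85 and 0.90 FPKM in CL and 0.41, 0.44 and 0.30 FPKM in FL and missed the fold limit in the unscaled values (-0.96, limma adjusted p = 0.0351, range 0.0175 to 0.135 over 13 alternatives). It was called lower in 2 more alternatives, without FL2 (where the difference was just past 2-fold) and with a pseudocount of 0.01 (-1.11), while without CL5 the calls were 0 higher and 2 lower, Cish and Socs2. Without FL2 Clcf1 was still called higher (1.52), and with a pseudocount of 1 there were 0 calls. Cntfr, Cish and Socs2 were named after their values were seen.

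Socs3 (ENSRNOG00000002946, chromosome 10), the feedback inhibitor that STAT3 induces, had 1.19, 3.42 and 3.21 FPKM in the control livers and 15.1, 2.55 and 2.23 FPKM in the fibrotic livers. FL2 alone was high, FL5 and FL12 lay inside the control range, and CL5 was the lowest rat. The log2 difference was 0.88 with an SE of 0.71 (limma adjusted p = 0.405), 0.01 without FL2, 0.41 without CL5 and 0.46 after quantile normalization. Its range within a group, 2.71 on the log2 scale in FL and 1.45 in CL, was the widest of the 9 members. Stat3 had the same highest rat, with 44.9 FPKM in FL2, 20.8 and 23.8 FPKM in FL5 and FL12 and 20.2 to 23.6 FPKM in the controls (log2 difference 0.36, limma adjusted p = 0.363, with 0.02 without FL2, 0.13 after median scaling and 0.20 after quantile normalization).

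The 14 STAT3-responsive hepatocyte genes had a median log2 difference of 0.69, with 0.46 after median scaling and 0.81 after quantile normalization. Of the 14, 3 rose and 0 fell (5 were higher and 1, Crp, lower at an unadjusted p under 0.05). The same 3 were called higher without FL2 and under both rescalings, and without FL2 Crp, the gene for C-reactive protein, was called lower. Crp had 786, 832 and 869 FPKM in the control livers and 753, 357 and 314 FPKM in the fibrotic livers. FL2 lay just under the controls and FL5 and FL12 far below them, so the log2 difference was -0.92 with all rats (limma adjusted p = 0.0911, range 0.0041 to 0.239 over 14 alternatives) and -1.31 without FL2. Crp was named after its values were seen. Lcn2, which encodes the iron-siderophore carrier lipocalin 2, had 1.35, 1.35 and 3.75 FPKM in the control livers and 490.5, 13.1 and 168 FPKM in the fibrotic livers. It was high in all FL rats, far more so in FL2 than in FL5, and rose by a log2 difference of 5.68 (SE 1.15, limma adjusted p = 0.0152), with the call lost without CL5, CL6 or FL12 (5.33 to 5.45) and a difference of 4.56 without FL2. The protease inhibitor A2m stood at 0.56 to 0.59 FPKM in CL and at 10.5, 2.46 and 3.86 FPKM in the fibrotic livers (log2 difference 2.81, limma adjusted p = 0.0079, and 2.23 without FL2). Lbp, the carrier of bacterial lipopolysaccharide, stood at 16.0 to 23.5 FPKM in CL and at 180, 49.2 and 83.3 FPKM in the fibrotic livers (log2 difference 2.28, limma adjusted p = 0.0111, and 1.78 without FL2). In these 3 genes the order of the FL rats was FL2, FL12, FL5, and in Osmr it was FL12, FL2, FL5.

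**Figure D2:**
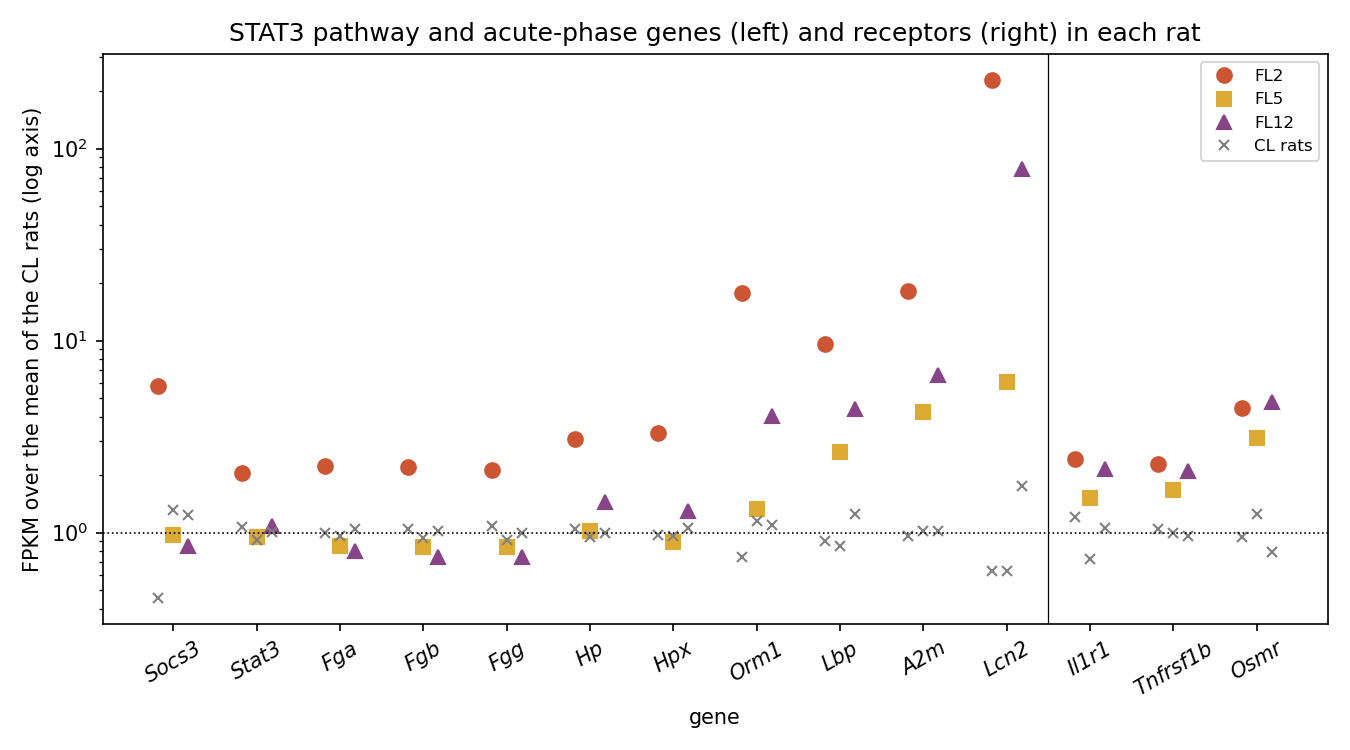
FPKM of each rat divided by the mean of the CL rats (log axis) for Socs3, Stat3 and 9 acute-phase genes (left of the line) and for 3 receptors (right of it), with 1 symbol per rat and a dotted line at 1. Socs3 is at 5.80 in FL2 and at 0.978 and 0.855 in FL5 and FL12, whereas Osmr is at 4.44, 3.11 and 4.80.

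The order of the members by listed level was read within each group. In CL it ran from Tnfrsf1a (38.4 FPKM) through Il6r (21.5), Il1r1 (12.7), Il1rn (6.29), Tnfrsf1b (4.03), Il18 (3.03), Socs3 (2.61) and Osmr (1.76) to Il1b (0.713), as mean FPKM. Neighbours in this order overlapped over the rats only between Il18 and Socs3 and between Socs3 and Osmr. In FL the order by mean FPKM was Tnfrsf1a (47.6), Il1r1 (25.8), Il6r (19.8), Tnfrsf1b (8.13), Il1rn (7.89), Osmr (7.25), Socs3 (6.63), Il18 (4.49) and Il1b (1.02). The ranges of Il1r1 and Il6r overlapped between rats, but Il1r1 was above Il6r within each of the 3 FL rats and below it within each of the 3 CL rats. From Tnfrsf1b to Il18, neighbours in the FL order overlapped and had that order in 1 or 2 of the 3 rats. Among the FL rats, FL2 had the highest value for 6 of the 9 members and FL5 the lowest for 6.

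The 3 genes with the pattern most like that of Il1b over the 6 rats were Rab17, C3 and C6, with root mean square log2 differences of 0.123, 0.135 and 0.144, each profile taken relative to its CL mean, among 10534 genes whose average reached 1 FPKM. For Socs3 they were Prg4 (0.529), Mir802 (0.551) and Bcl3 (0.589). These distances are not scaled by the spread of a gene, and the log2 range in FL was 2.71 for Socs3 and 0.974 for Il1b. The distances of Socs3 and of Il1b can therefore not be compared with each other. The complement gene C3 had 1931 to 2289 FPKM in CL and 3998, 2140 and 2568 FPKM in the fibrotic livers.

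Receptors of other cytokines were listed as 28 genes, 24 of them tested. Their median log2 difference was 0.70, with 0.49 after median scaling and 0.40 after quantile normalization. Of the 24, 10 rose and 0 fell (18 were higher and 1 lower at an unadjusted p under 0.05). Those with the largest differences at the pseudocount of 0.1 were Il2ra (1.90), Csf3r (1.72), Il2rg (1.59) and Il7r (1.51), which encode chains of the receptors for interleukin-2, granulocyte colony-stimulating factor, the common-γ cytokines and interleukin-7. Il7r had 1.08, 1.40 and 0.82 FPKM in the CL rats and 2.44, 4.94 and 2.82 FPKM in the FL rats (limma adjusted p = 0.0142), with FL5 the highest. The groups did not overlap in any of the 4. Their place depended on the pseudocount, as Il2ra was listed at 0.06 to 0.09 FPKM in CL and 0.41 to 0.79 FPKM in FL: with a pseudocount of 1, Il2ra (0.53), Csf3r (0.61) and Il2rg (0.77) were not called and lay below Csf2ra (1.24), which was named after its values were seen. After quantile normalization 0 of the 4 were called (1.03 to 1.31). The call of Il7r was lost without CL7 (1.33), that of Csf3r without CL7 (1.79) and that of Il2rg without FL5 (1.42). Without FL2 the receptor list had 9 genes higher, and leaving out another rat gave from 6 (without FL5) to 11 (without CL6). After median scaling there were 7, with a pseudocount of 1 there were 4, and after quantile normalization 1. Of 21 other cytokines 8 were tested and 1 rose, Il23a (2.08), a subunit of interleukin-23, at 0.02 to 0.16 FPKM in CL and 0.47 to 0.80 FPKM in FL, with the call lost without CL7 or FL12 (1.85 to 1.89), with a pseudocount of 1 (0.58) and after quantile normalization (1.57), and kept without FL2.

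Some markers of several cell types were also called higher in FL, as were 9.29% of all genes tested. Of 12 macrophage markers, all tested, 10 had a positive log2 difference and 2 a negative one. The 2 were Cd14 (-0.70) and Clec4f (-0.02), neither of them called and both named after their values were seen. Of the 12, 4 rose, Lyz2 (log2 difference 3.13), Marco (2.06), Cd68 (1.69) and Csf1r (1.13), and 4 were also called without FL2. The call of Csf1r was lost without FL5 (0.99), after median scaling (0.91) and after quantile normalization (0.93), which left 3. By the mean over all 6 rats C1qc was the most abundant marker (39.6 to 43.7 FPKM in CL, 47.3 to 81.4 FPKM in FL). In CL alone Clec4f had the higher mean, at 47.15 FPKM beside 42.27 FPKM. The summed level of the 12 markers was 213, 210.5 and 210.5 FPKM in the control livers and 436, 430 and 276 FPKM in the fibrotic livers. All FL rats were above all CL rats, and FL12, which had the highest Osmr, had the lowest macrophage sum of its group. Csf1r stands in this list and in that of the other receptors. Of 8 stellate cell and myofibroblast markers 7 were tested and 5 rose, led by Col1a1 (log2 difference 4.24), Col3a1 (2.37), Des (2.28) and Rgs5 (2.10), and without FL2 there were 6. The sums were 76.3, 75.9 and 70.3 FPKM in the control livers and 206, 525 and 472 FPKM in the fibrotic livers, with Col3a1 the most abundant (46.5 to 51.8 FPKM in CL, 140 to 342 FPKM in FL). FL2 was the lowest of its group in this sum, while it was the highest in the macrophage sum, for Il1r1 and for Tnfrsf1b. FL5, with a macrophage sum close to that of FL2, was the lowest of its group for Il1r1 (19.2 FPKM) and for Tnfrsf1b (6.70 FPKM).

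Neutrophil markers had low listed levels. Of 7, 4 were tested and 3 rose, S100a8 (log2 difference 2.20), S100a9 (1.85) and Csf3r (1.72), with sums of 0.37, 0.97 and 1.22 FPKM in CL and 4.83, 2.11 and 4.56 FPKM in FL, S100a8 being the most abundant (0.06 to 0.57 FPKM in CL, 0.96 to 2.29 FPKM in FL), while Mpo, Elane and Camp, which are transcribed mainly in neutrophil precursors of the bone marrow, were listed at 0 to 0.12 FPKM in all 6 rats. The call of S100a8 was lost without any 1 of the 6 rats (1.56 to 2.59) and that of S100a9 without CL5, CL6, FL2, FL5 or FL12 (1.51 to 2.16), so that 1 was called without FL2, 2 with a pseudocount of 0.01, 1 with a pseudocount of 1, without the filter, without the trend or after median scaling, and 0 after quantile normalization, and Csf3r counts both here and among the other receptors. Of 8 T and NK cell markers, all tested, 2 rose, Cd2 (log2 difference 1.39, lost without CL5, CL6 or FL5 at 1.18 to 1.38, with a pseudocount of 1 at 0.52, after median scaling at 1.21 and after quantile normalization at 0.76) and Cd4 (1.25), with sums of 12.3, 10.2 and 11.2 FPKM in CL and 22.4, 30.5 and 23.9 FPKM in FL, mostly from Cd4 (8.22 to 9.93 FPKM in CL, 18.2 to 23.9 FPKM in FL), which rat macrophages also express. Both calls held without FL2. The 3 CD3 chains, which define T cells, were at 0.07 to 0.48 FPKM in CL and 0.09 to 1.03 FPKM in FL.

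B cell markers numbered 5, of which 2 were tested and 0 rose, with or without FL2 (1 was higher at an unadjusted p under 0.05, and 1, Cd79a, was called higher without FL12), with sums of 0.57 to 0.74 FPKM in CL and 1.15 to 1.96 FPKM in FL, led by Cd79a (0.37 to 0.53 FPKM in CL, 0.56 to 1.25 FPKM in FL). Of 7 endothelial markers 6 were tested and 1 rose, Vwf (log2 difference 1.05, lost without CL5, CL6, CL7, FL5 or FL12 at 0.83 to 1.13, with a pseudocount of 1 at 0.85, after median scaling at 0.83, after quantile normalization at 0.71, and without the trend, but kept without FL2). The endothelial sums were 73.7, 72.2 and 64.8 FPKM in CL and 88.9, 75.5 and 83.4 FPKM in FL. By the mean over all 6 rats Kdr was the most abundant (21.0 to 22.1 FPKM in CL, 15.9 to 23.4 FPKM in FL). In FL alone Lyve1, named after its values were seen, had the higher mean (21.3 beside 19.01 FPKM). The 5 cholangiocyte markers had 0 called (1 was higher at an unadjusted p under 0.05, and 1 was called higher without FL2), with sums of 5.38 to 7.75 FPKM in CL and 5.38 to 11.3 FPKM in FL, led by Epcam (4.22 to 6.02 FPKM in CL, 4.27 to 7.80 FPKM in FL). The part of these cell types in the levels of Osmr, Il1r1, Tnfrsf1b and the other members was not tested.

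Promoter windows of RefSeq on build GRCr8, from 250 bases before to 50 bases after a gene start, were matched by symbol for 10 of the 10 members. They were searched on both strands for TTCNNNGAA, the letters of a STAT site, which 8.87% of 33469 promoters hold, and for GGANNTTCC, letters like those of an NF-κB site, which 4.09% hold. No member had the former letters in its window, and Tnf alone had the latter, from base -226 to base -218 before its start. For Il1rn, Il1r1, Il6r, Osmr and Socs3 the window belongs to a start 10486, 33825, 1496, 241 and 1207 bases from the outermost start of the gene, so other starts of these genes were not searched. These letters not being in a window says nothing of other positions.

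The TATA box letters TATAAA were searched after the sequences were seen, in the 60 bases before the start on the sense strand, where 2.61% of the 33469 promoters hold them. Of the 5 members whose window begins at the outermost start, the ligand genes Il1b and Tnf held them and the ligand gene Il18 and both TNF receptor genes did not. The letters began at base -60 in Il1b, the first base searched, and at base -46 in Tnf, so a shorter stretch would not have held the match of Il1b. As the search followed a look at the sequences, the share of all promoters is a description only. The 60 bases before the start are shown for these 5, 5′ to 3′ on the strand of the gene, to set ligand and receptor genes side by side, with the letters TATAAA in capitals. They lie at chr3:137036582-137036641 (minus strand) for Il1b, chr20:3626625-3626684 (plus) for Tnf, chr8:59802012-59802071 (plus) for Il18, chr4:159837059-159837118 (plus) for Tnfrsf1a and chr5:162387412-162387471 (minus) for Tnfrsf1b.
Il1b: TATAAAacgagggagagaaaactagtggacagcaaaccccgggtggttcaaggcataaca
Tnf: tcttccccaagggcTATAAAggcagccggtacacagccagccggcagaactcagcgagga
Il18: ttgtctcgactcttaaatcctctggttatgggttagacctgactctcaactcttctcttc
Tnfrsf1a: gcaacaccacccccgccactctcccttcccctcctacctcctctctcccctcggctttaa
Tnfrsf1b: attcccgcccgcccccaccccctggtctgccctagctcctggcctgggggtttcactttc
Over the whole window the share of G and C was 45.3% for Il1b, 39.3% for Il18 and 56.7% for Tnf, and 55.7% for Tnfrsf1a and 61.0% for Tnfrsf1b, with 2, 4, 9, 13 and 12 CpG dinucleotides, beside medians of 51.7% and 7 over all promoters. A match is a description of the letters, and promoter activity was not measured.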

How the data were processed

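Total RNA of 6 rat livers was sequenced after removal of ribosomal RNA. The authors used FASTX-Toolkit to trim reads and TopHat2 to align them, and computed the deposited FPKM values from uniquely mapped reads. The genome named in the submitters' processing notes is GRCh38, although the gene identifiers are those of Ensembl for rat, and the annotation release is not given in the sources used here. The table gives no counts, and read numbers per library were not used here. Depth relative to CL5, roughly estimated from the steps between low values of U6 genes, was 0.656 in CL6, 0.84 in CL7, 0.677 in FL2, 0.75 in FL5 and 0.677 in FL12, with 65.2% to 82.9% of those values on a step. Groups and rat numbers came from the sample labels, and 2 further value columns that match no sample were not used. Pairs of rats shared 0.99% to 2.87% of their values above 0, so no library was a copy of another.

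Genes whose average over the 6 rats reached 0.1 FPKM were tested with limma 3.58.1 in R 4.3.3, with a trend in the variance, on log2(FPKM + 0.1), without scaling between rats, and p-values were adjusted by Benjamini-Hochberg over all 14864 genes. Calls needed an adjusted p under 0.05 and a 2-fold difference. The fit was tested on simulated data. The 3 ratios were tested by exact two-sided permutation with scipy 1.17.1 in Python 3.11.15, and plots were made with matplotlib 3.10.9. The limma p-values rest on the spread between 3 rats a group, with the variance of each gene drawn towards a trend over genes of similar level. For genes with very high levels, such as Alb, the resulting SE can be wider than the spread of their own rats. The permutation p-values use the ratios of the 3 rats a group alone. Alternatives were pseudocounts of 1 and 0.01, no filter, a mean of at least 1 FPKM, median scaling (from 9201 genes), quantile normalization, no trend, a robust prior, each rat left out, and no fold limit.

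The members and the gene lists were chosen with earlier results of these data known. Named genes were all members, up to 4 called genes with the largest difference of each list, 13 pathway genes named whatever their values (Il6, Il6st, Il1rap, Il1r2, Il1a, Osm, Lifr, Stat3, Nfkbia, Tnfaip3, Ltb, Casp1 and Myd88), and the most abundant gene of each cell type list, with exceptions stated where they are named. Promoter sequences were from RefSeq, GRCr8.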

Additional observations from a re-analysis of the deposited data

How the results depend on the processing

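With 3 rats a group and no read counts, differences near the thresholds depended on single choices. The count of higher genes, 1381, was 462 with a pseudocount of 1, 854 with a mean of at least 1 FPKM, 826 after median scaling, 453 after quantile normalization, 2518 without the fold limit and 740 to 1831 with 1 rat left out. The count of lower genes, 139, was 72 with a pseudocount of 1, 231 after quantile normalization, 288 without the fold limit and 81 to 160 with 1 rat left out. Of the calls, 90.9% were higher, against 82% after median scaling and 66.2% after quantile normalization. Members called higher numbered 2, but 1 with a pseudocount of 1, after median scaling, after quantile normalization and without the trend, 3 with a pseudocount of 0.01 and without the fold limit, and 1 to 3 with 1 rat left out. The log2 difference of Il1b turned from 0.40 to -0.18 after quantile normalization, the log2 ratio of Il1rn to Il1b was -0.08 but positive in 3 of 8 alternatives, within the spread between rats, and the log2 ratio of Osmr to Il6r moved from 2.10 to 1.69 with a pseudocount of 1. The cause of these shifts was not tested, other than fewer genes tested under the stricter mean. Of 125 pairs of a member and an alternative, 113 kept direction and side of the threshold, 8 (all Il1r1) lost the call, 3 (all Tnfrsf1b) gained it and 1 (Il1b) reversed. At a mean of at least 1 FPKM Il1b was not tested. No paired analysis was possible because the rat numbers name animals and the groups share only the number 5.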

Other observations

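Within the gp130 list, Socs2 and Cish, inhibitors that growth hormone induces through STAT5, split the control rats, and both were picked for naming after their values were seen. Socs2 had 14.2 FPKM in CL5 and 90.1 and 69.4 FPKM in CL6 and CL7, beside 28.1, 12.5 and 5.30 FPKM in FL2, FL5 and FL12. Cish had 0.74 FPKM in CL5 and 11.2 and 10.4 FPKM in CL6 and CL7, beside 2.62, 1.15 and 0.87 FPKM in FL2, FL5 and FL12. CL5 lay inside or below the FL range for both and neither gene passed the test with all rats, with log2 differences of -1.85 (limma adjusted p = 0.13, range 0.0412 to 0.325 over 14 alternatives) and -1.64 (limma adjusted p = 0.246, range 0.0163 to 0.546). Without CL5 both were called lower in FL, with differences of -2.67 and -2.87. The estimated relative depth was also highest in CL5. Socs3 was also lowest in CL5 among all 6 rats.

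The collagen gene Col1a2, whose product pairs with that of Col1a1 in type I collagen, was listed at 0.01 to 0.02 FPKM in CL and 0.03 to 0.18 FPKM in FL, while Col1a1 stood at 2.12 to 3.77 FPKM and 17.0 to 101 FPKM. Mif, a cytokine gene that is widely expressed, was listed at 0.06 to 0.46 FPKM over the 6 rats. These 3 genes, too, were named after their values were seen.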
